A study of Mus musculus with 288 samples.

Results

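A set of 10 genes of the ATF4 and amino acid stress pathway were followed in mouse macrophages: the transcription factor genes Atf4, Atf5 and Ddit3, the feedback genes Trib3 and Sesn2, the biosynthetic enzyme genes Asns, Phgdh and Psat1, and the transporter genes Slc3a2 and Slc7a5. These 10 were chosen by name from the 23481 genes of the deposited table, of which 14708 had at least 1 UMI (unique molecular identifier, a random barcode that marks 1 captured RNA molecule). All 10 were found. The choice was made with earlier results of these data known. The cells were bone marrow-derived macrophages of C57BL/6 mice aged 12 weeks, grown for 7 days in medium with M-CSF. They were pretreated for 24 h with DMSO as the solvent control, with dCA at 100 nM or with BRD-6989 at 1 µM, both labelled as inhibitors of the Mediator kinase CDK8. After that, NoStim wells got no stimulus and the others got CpG, FLA, LPS, MDP, MDP_LPS, Pam3cys, Poly(I:C), R848, SeV, TDB or Zymosan, and were labelled with 8 times from 15 to 180 min. Each of the 288 combinations was 1 well. Each pretreatment had a plate of 96 wells, each time filled a plate row and each stimulus a plate column, so the inhibitor cannot be told apart from its plate, nor time and stimulus from position.

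ATF4 is the effector of the integrated stress response. When an eIF2 kinase senses amino acid shortage, unfolded protein, viral RNA or lack of heme, eIF2 is phosphorylated, protein synthesis in general slows, and Atf4 mRNA, with short upstream reading frames, is translated more. ATF4 protein then pairs with C/EBP factors on composite sites and raises genes that make, import or charge amino acids, and under lasting stress it raises Ddit3 (CHOP). An mRNA level of Atf4 therefore reads only part of its control, and the mRNA of its target genes is the usual readout of its activity.

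Of the members, 2 carried the composite C/EBP-ATF core, searched as TGATGNAA on both strands, in the window from 250 bases before to 50 bases after the RefSeq start site (GRCm38.p6). Their sites are shown because this core is the sequence through which amino acid shortage is known to act on these genes. In Asns the core lay 23 bases upstream of the start site (minus strand, chr6:7693210-7693252). In Trib3 it lay 14 bases downstream of the start site on the opposite strand to the gene (minus strand, chr2:152344028-152344057). Both are written 5′ to 3′ in the direction of transcription, with the match in capitals.
Asns: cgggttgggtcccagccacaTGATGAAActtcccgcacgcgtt
Trib3: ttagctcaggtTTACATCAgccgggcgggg
The core was found in 3.97% of 32851 windows of the same length. The 11 windows of the members belonged to 9 genes, since Atf5 and Psat1 had 2 each, and the windows of Atf4, Atf5, Ddit3, Sesn2, Phgdh, Psat1 and Slc3a2 did not hold these letters.

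The wells were shallow for these genes. UMI totals per well ran from 37542 to 127223. The share of Rn45s, the ribosomal RNA precursor, was 52.7% ± 6.88 per well on the DMSO plate, 49.0% ± 7.04 on the dCA plate and 43.6% ± 6.75 on the BRD-6989 plate (SD, n = 96 wells each). It was left out, and levels below are UMI per 1000000 of the other UMI (CPM). Adding up the 8 times gave 36 libraries, 12 per pretreatment, with 227325 to 449471 UMI. No separate cultures or animals are labelled, so p-values measure the spread between these wells or libraries, and in such bulk samples fewer cells of a type and less RNA per cell cannot be told apart. The macrophage list held UMI for 10 of 10 markers and summed to 4137 to 5502 CPM in every library, a sum led by Lyz2. Of 9 macrophage markers tested, 2 were higher and 3 lower under dCA, against 17.9% of all 5691 genes called. Under BRD-6989 4 were higher and 4 lower, against 21.0% of all genes. Single markers thus differed between plates along with the members below. Of 7 T, NK and B cell markers 4 were at 0, among them Cd3e. The others held UMI, led by Cd3d with 80. The sum of this list reached 15.4 CPM in DMSO libraries, 19.8 in dCA and 11.9 in BRD-6989. Of 5 dendritic cell markers 2 were at 0, and Xcr1 led with 210 UMI. Their sum reached 68 CPM in DMSO libraries, 49.5 in dCA and 40.98 in BRD-6989. Mast cell and basophil markers were led by Kit with 30 UMI, and fibroblast and endothelium markers by Pecam1 with 10. The 7 neutrophil markers, of which 6 were in the table and Elane was at 0, summed to 7.66 to 52.8 CPM in DMSO libraries, 0 to 13.3 in dCA and 0 to 9.15 in BRD-6989. The neutrophil sums were lower on the inhibitor plates, where members below were higher. The part of any of these lists in the members' values was not tested.

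Asns, Phgdh and Atf5 rose on both inhibitor plates, and Atf4 rose on the BRD-6989 plate. Over the 12 matched conditions, 7 members had enough counts to be tested, and 3 passed under dCA, all higher, against 17.9% of all 5691 genes called (9.82% higher, 8.12% lower). Under BRD-6989 4 of the 7 passed, all higher, against 21.0% of all genes (10.5% higher, 10.5% lower). The median log2 change of the tested members was 0.35 under dCA and 0.60 under BRD-6989, where that of all genes tested was -0.01 and 0.00. Trib3, Sesn2 and Slc7a5 had too few UMI for the test. The members were chosen with earlier results of these data known, so their counts beside those of all genes are a description only. The count filter needs enough counts in about as many libraries as a plate has, so a gene can enter through plates where it is high. Asns, Phgdh and Atf5, with DMSO medians of 29.1, 15.1 and 12.5 CPM, entered largely through the inhibitor plates. That their calls were all higher is thus partly set by the filter. Both inhibitors were compared with the same DMSO plate, so a likeness between their values is partly built in. Their doses differed, and no test was made between them.

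**Figure D1:**
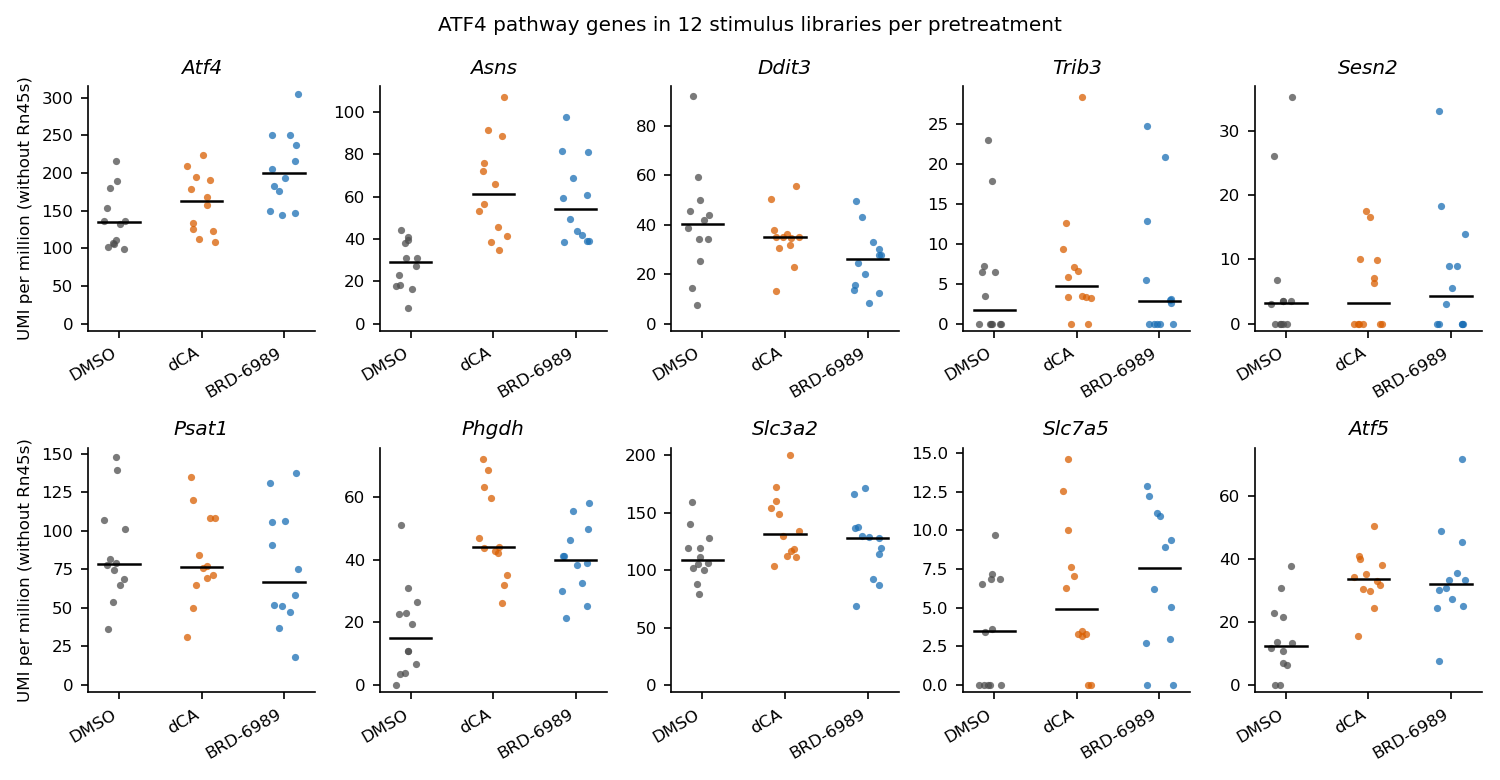
Level in CPM (y axis) of the 10 genes in the 12 stimulus libraries of each pretreatment (x axis), with each point a library of 8 summed wells and the line the median. Asns, Phgdh and Atf5 points sit higher on both inhibitor plates, with medians of 61.4, 44.0 and 33.7 in dCA against 29.1, 15.1 and 12.5 in DMSO, and Trib3, Sesn2 and Slc7a5 hold many points at 0.

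Asns encodes asparagine synthetase, which makes asparagine from aspartate and glutamine (chr6:7675165-7693209). Its level ran from 7.20 CPM (NoStim) over a median of 29.1 to 44.2 (Pam3cys) in the 12 DMSO libraries, from 34.7 (Zymosan) over 61.4 to 107 (CpG) in dCA, and from 38.6 (Pam3cys) over 54.3 to 97.6 (MDP) in BRD-6989. The ranges overlapped, but 12 of 12 dCA libraries and 10 of 12 BRD-6989 libraries stood above the DMSO library of the same stimulus. The log2 change was 1.27 ± 0.26 (SE) under dCA (edgeR adjusted p = 0.000143) and 1.12 ± 0.26 under BRD-6989 (adjusted p = 0.000641). At each of the 8 times, with all conditions summed, Asns was higher on both inhibitor plates than on the DMSO plate.

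Phgdh encodes phosphoglycerate dehydrogenase, the first enzyme of serine synthesis from a glycolytic intermediate (chr3:98313171-98339969). DMSO libraries ran from 0 (FLA) over a median of 15.1 to 51.0 CPM (Pam3cys). Those of dCA ran from 26.3 (R848) over 44.0 to 72.3 (Pam3cys), and those of BRD-6989 from 21.4 (MDP) over 40.0 to 58.3 (R848). In 11 of 12 conditions each inhibitor stood above DMSO. The log2 change was 1.65 ± 0.35 under dCA (edgeR adjusted p = 0.000267) and 1.32 ± 0.34 under BRD-6989 (adjusted p = 0.00289). Psat1, the phosphoserine aminotransferase that follows Phgdh in the same pathway (chr19:15905123-15925059), did not pass under either inhibitor. Its median was 78.5 CPM with DMSO, 76.6 with dCA and 66.6 with BRD-6989, with log2 values of 0.01 ± 0.24 (adjusted p = 0.983) and -0.18 ± 0.24 (adjusted p = 0.680).

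Atf5, a bZIP factor whose translation is also raised by eIF2 phosphorylation (chr7:44812256-44816658), ran from 0 (LPS) over a median of 12.5 to 37.7 CPM (Zymosan) in DMSO. It ran from 15.7 (Pam3cys) over 33.7 to 50.4 (Zymosan) in dCA and from 7.72 (FLA) over 32.1 to 71.9 (NoStim) in BRD-6989. It was higher than in DMSO in 12 of 12 conditions under dCA and in 10 of 12 under BRD-6989. The log2 change was 1.34 ± 0.37 (edgeR adjusted p = 0.00617) and 1.30 ± 0.37 (adjusted p = 0.00651). In total read counts, which keep PCR copies, neither value of Atf5 passed (1.23, adjusted p = 0.138, and 1.35, adjusted p = 0.0860).

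Atf4 itself (chr15:80255184-80257545) ran from 99.5 (Zymosan) over a median of 134 to 216 CPM (R848) in DMSO, from 108 (SeV) over 163 to 225 (MDP_LPS) in dCA, and from 145 (Poly(I:C)) over 200 to 305 (R848) in BRD-6989. Under BRD-6989 it was higher in 11 of 12 conditions and at all 8 times, with a log2 change of 0.60 ± 0.13 (edgeR adjusted p = 0.000413). Under dCA it was higher in 8 of 12 conditions, and the log2 value of 0.29 ± 0.14 missed the threshold (adjusted p = 0.145).

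Ddit3, the stress factor CHOP (chr10:127290793-127296291), was the tested member with the lowest log2 values. Its median was 40.3 CPM with DMSO, 35.0 with dCA and 26.1 with BRD-6989, and the DMSO libraries spread widely, from 7.66 (LPS) to 91.8 (Pam3cys). The log2 value was -0.06 ± 0.31 under dCA (adjusted p = 0.929) and -0.59 ± 0.31 under BRD-6989 (adjusted p = 0.185), where Ddit3 was lower in 8 of 12 conditions and at all 8 times. Neither passed.

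Slc3a2 encodes CD98, the heavy chain that brings several amino acid exchangers to the cell surface (chr19:8706882-8723369). It had medians of 109 CPM with DMSO, 132 with dCA and 128 with BRD-6989. The log2 values were 0.35 ± 0.15 (adjusted p = 0.116) and 0.14 ± 0.15 (adjusted p = 0.580), and neither passed. Slc7a5, the LAT1 light chain that pairs with CD98 to import large neutral amino acids (chr8:121881146-121907686), had only 13 UMI on the DMSO plate, 22 on the dCA plate and 30 on the BRD-6989 plate. The plate ratios were 1.67 (95% counting interval 0.803 to 3.60) and 1.89 (0.955 to 3.94). A difference was not detectable at this depth.

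Trib3, a pseudokinase induced by ATF4 and CHOP that restrains both (chr2:152337425-152344060), had 18 UMI on the DMSO plate, 26 on the dCA plate and 26 on the BRD-6989 plate. The plate ratios were 1.42 (0.750 to 2.75) and 1.18 (0.623 to 2.29). Sesn2, a sestrin that senses leucine and restrains mTORC1 (chr4:132492804-132510456), had 22, 20 and 33 UMI, with ratios of 0.895 (0.463 to 1.72) and 1.23 (0.694 to 2.21). Each was seen in at most 13 of 96 wells of a plate. The intervals of both genes include 1, so the counts set no direction for them.

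**Figure D2:**
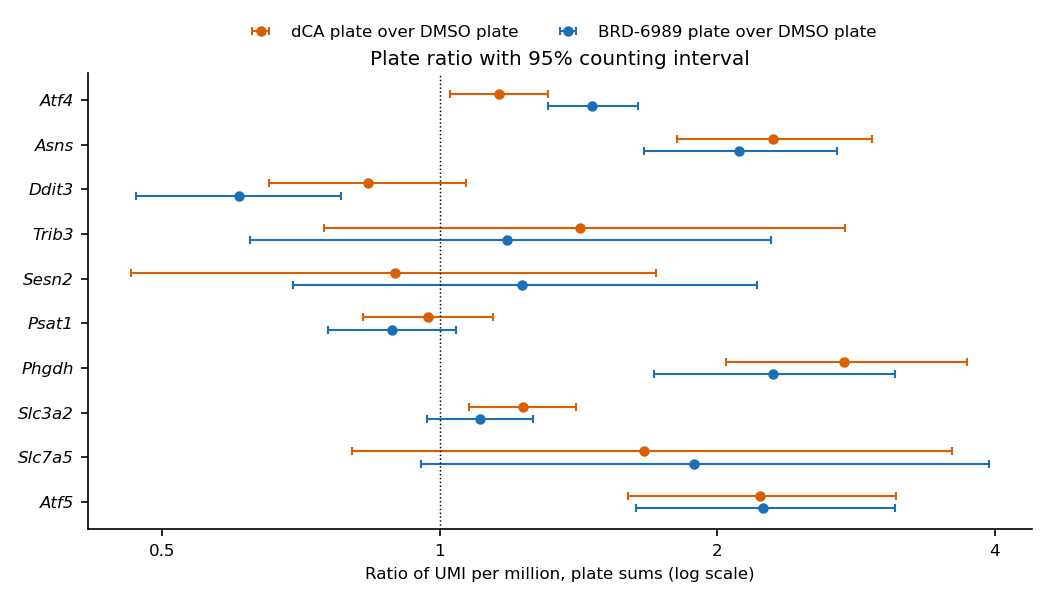
Ratio of the level in CPM on each inhibitor plate to the DMSO plate (x axis, log scale) for the 10 genes (y axis), with bars for the 95% conditional binomial interval of the counts, which covers counting error only. Intervals of Asns, Phgdh, Atf5 and Atf4 lie above 1 for both inhibitors, that of Slc3a2 lies above 1 for dCA (1.08 to 1.41) and includes 1 for BRD-6989, those of Trib3, Sesn2, Psat1 and Slc7a5 include 1, and the interval of Ddit3 lies below 1 for BRD-6989 (0.469 to 0.782).

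The share of Rn45s was lower on the plates where these levels were higher, and its part in them was not tested beyond a covariate. With each library's Rn45s share as a covariate, the 3 dCA values stood at 1.06 (Asns, adjusted p = 0.0205), 1.47 (Phgdh, 0.0178) and 1.68 (Atf5, 0.0157). For BRD-6989 0 of 7 members then passed, with Asns at 0.59 (adjusted p = 0.731), Phgdh at 0.85 (0.712), Atf5 at 2.14 (0.225) and Atf4 at 0.03 (0.985), while 187 of all 5691 genes were called in place of 1197. When each of the 12 conditions was left out in turn, the 7 called values kept their calls, with the highest adjusted p at 0.0243 (Atf5 under BRD-6989).

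In the other genes of the pathway, calls went both ways. Of 16 genes for the eIF2 kinases, eIF2, eIF2B and their regulators, 11 were tested, and 0 were higher and 2 lower under each inhibitor. Ppp1r15a (GADD34), the phosphatase subunit that ends the stress response by removing the phosphate from eIF2, averaged 151 ± 48.5 CPM in DMSO libraries, 72.5 ± 25.2 in those of dCA and 79.4 ± 36.3 in those of BRD-6989 (SD, n = 12 each). It fell by 1.00 ± 0.21 on the log2 scale under dCA (edgeR adjusted p = 0.000210) and fell by 0.91 ± 0.20 under BRD-6989 (adjusted p = 0.000492). It was lower in 12 and 11 of the 12 conditions. Eif2ak2 (PKR), the eIF2 kinase for double-stranded RNA and also an interferon-induced gene, fell by 0.40 ± 0.13 (adjusted p = 0.0247) and fell by 0.59 ± 0.13 (adjusted p = 0.000528). Eif2ak4 (GCN2), the kinase that senses uncharged tRNA, stood at 0.28 ± 0.32 (adjusted p = 0.635) and 0.24 ± 0.31 (adjusted p = 0.660).

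Of 36 other target genes of ATF4, 15 were tested, and 2 were higher and 1 lower under each inhibitor. Slc38a2 (SNAT2), a transporter of small neutral amino acids that cells raise when amino acids are short, rose under both, from 170 ± 31.7 CPM in DMSO to 213 ± 38.3 in dCA (log2 0.40 ± 0.13, edgeR adjusted p = 0.0214) and 231 ± 51.6 in BRD-6989 (0.46 ± 0.13, adjusted p = 0.00441; n = 12 libraries each). Slc7a1 (CAT1), the arginine and lysine transporter, rose under dCA at 0.80 ± 0.28 (adjusted p = 0.0362). Atf3, a bZIP factor of many stress pathways, rose under BRD-6989 at 0.81 ± 0.16 (adjusted p = 6.46e-05) and stood at 0.29 ± 0.16 under dCA (adjusted p = 0.225). The stress cytokine gene Gdf15 fell by 0.98 ± 0.27 under dCA (adjusted p = 0.00641), and the chromatin factor gene Nupr1 fell by 0.82 ± 0.28 under BRD-6989 (adjusted p = 0.0301). The medians of the list were -0.02 and 0.20.

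The cytosolic aminoacyl-tRNA synthetases, which charge tRNAs and include known targets of ATF4, had 19 of 20 genes tested. Under dCA 2 were higher and 0 lower, with Dars (aspartate) at 0.61 ± 0.15 (edgeR adjusted p = 0.00257) and Nars (asparagine) at 0.36 ± 0.13 (adjusted p = 0.0376). Under BRD-6989 3 were higher and 0 lower, with Dars at 0.53 ± 0.15 (adjusted p = 0.00738), Eprs (glutamate and proline) at 0.43 ± 0.15 (adjusted p = 0.0277) and Nars at 0.39 ± 0.13 (adjusted p = 0.0179). The medians were 0.25 and 0.19. Of the 16 genes of ER chaperones and the ATF6 and XBP1 arm, 15 were tested. Pdia6, a disulfide isomerase, was the 1 called under dCA, at 0.51 ± 0.17 (adjusted p = 0.0315). Under BRD-6989 3 were higher, the co-chaperone gene Dnajb9 at 1.31 ± 0.38 (adjusted p = 0.00768), the disulfide isomerase gene Pdia3 at 0.46 ± 0.16 (adjusted p = 0.0302) and the chaperone gene Hspa5 (BiP) at 0.19 ± 0.07 (adjusted p = 0.0435), and Pdia4 fell by 0.50 ± 0.18 (adjusted p = 0.0412). Under dCA the 4 lists thus had 2 of 11, 3 of 15, 2 of 19 and 1 of 15 tested genes called, beside 17.9% of all genes, and under BRD-6989 2 of 11, 3 of 15, 3 of 19 and 4 of 15, beside 21.0%.

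Unstimulated wells alone gave no member past the threshold. Of 6 members tested over 8 wells per pretreatment, 0 passed under dCA in edgeR, against 0.908% of all 5834 genes, and 0 under BRD-6989, against 1.06%. At an unadjusted p under 0.05 the counts were 0 and 1, beside 444 and 483 of all genes, and DESeq2 called 0 and 1, beside 88 and 96 of all genes. The 1 was Psat1 under BRD-6989. Its NoStim wells ran from 0 over a median of 87.2 to 418 CPM in DMSO (41 UMI), from 0 over 109 to 309 in dCA (36 UMI), and from 0 over 0 to 66.4 in BRD-6989 (6 UMI). The log2 value was -2.79 ± 0.95 in edgeR (unadjusted p = 0.00319, adjusted p = 0.164) and -2.97 in DESeq2 (adjusted p = 0.0420). In the same wells Asns had 2 UMI under DMSO, 17 under dCA and 13 under BRD-6989, and its log2 values of 1.92 ± 1.39 (edgeR adjusted p = 0.833) and 2.07 ± 1.36 (adjusted p = 0.786) missed the threshold. Phgdh had 3, 19 and 13 UMI, and values of 2.17 ± 1.28 (adjusted p = 0.765) and 1.86 ± 1.23 (adjusted p = 0.792). Trib3 and Sesn2 had 0 UMI in the 8 DMSO wells, which allows up to 10.8 CPM.

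No member passed in the comparisons of stimuli. In wells of 60 to 180 min, summed into 36 libraries of 130076 to 273442 UMI, 6 members were tested for any difference among the 12 conditions, and 0 passed in edgeR, against 6.39% of 6311 genes. At an unadjusted p under 0.05 there was 1, Atf4 (adjusted p = 0.148), beside 947 of all 6311 genes. In DESeq2 Atf4 was called (adjusted p = 0.0316), beside 638 of all 6311 genes. The mean of the 11 stimuli against NoStim also gave 0 of 6 in edgeR, against 2.36% of all genes. It gave 0 at an unadjusted p under 0.05 and 0 in DESeq2, beside 642 and 168 of all genes. The log2 values ran from -0.02 ± 0.42 (Psat1) to 0.57 ± 0.68 (Ddit3).

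Atf4 in these wells was highest with R848, at 141 CPM on the DMSO plate, 183 on the dCA plate and 386 on the BRD-6989 plate (mean 237 ± 131 SD, n = 3 plates). FLA (221 ± 53.5), TDB (218 ± 79.2) and Pam3cys (198 ± 66.7) followed, and on all 3 plates each of these 4, and CpG (165 ± 57.3), stood above NoStim. Then came MDP_LPS (148 ± 39.4), Zymosan (133 ± 47.4), NoStim (125 ± 60.3), MDP (125 ± 17.2), SeV (116 ± 21.1), Poly(I:C) (115 ± 27.1) and LPS (104 ± 17.5). Between neighbours in this order the means differed by less than the SD of either. Against NoStim, Atf4 had a log2 value of 0.95 ± 0.36 with R848 (edgeR unadjusted p = 0.0117, adjusted p = 0.233), 0.89 ± 0.36 with FLA (adjusted p = 0.439) and 0.82 ± 0.37 with TDB (adjusted p = 0.907), and -0.11 ± 0.39 with LPS (adjusted p = 0.966).

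**Figure D3:**
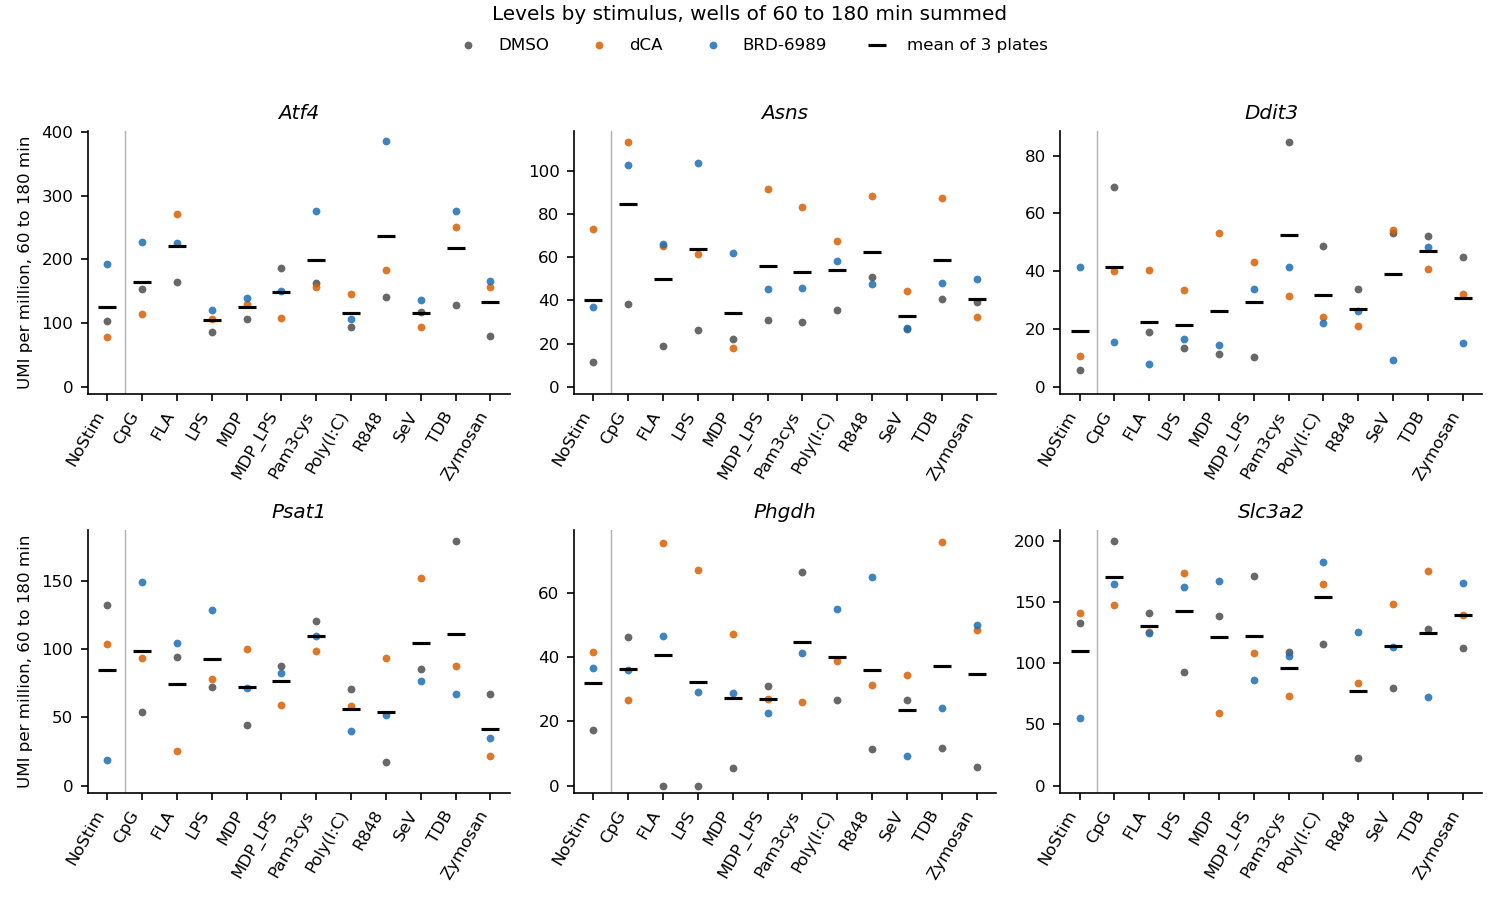
Level in CPM in wells of 60 to 180 min (y axis) of the 6 tested genes for NoStim and the 11 stimuli (x axis), with a point for each pretreatment plate and a bar for the mean of 3 plates. Atf4 has its highest means with R848 (237), FLA (221) and TDB (218) and its lowest with LPS (104), and plates of 1 stimulus are often as far apart as different stimuli.

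For the other members the plates of 1 stimulus spread as widely as the stimuli. Asns was highest with CpG (38.4, 114 and 103 CPM on the DMSO, dCA and BRD-6989 plates) and lowest with SeV (26.7, 44.4 and 27.1). On the DMSO plate all 11 stimuli stood above NoStim for Asns (11.5 CPM against 18.8 to 50.7), on the dCA plate 5 of 11 did and on the BRD-6989 plate 10 of 11 did. The DMSO NoStim value rests on 2 UMI. Ddit3 was above NoStim with all 11 stimuli on the DMSO plate (5.76 against 10.4 to 84.6) and on the dCA plate (10.4 against 20.9 to 54.2), but with 1 of 11 on the BRD-6989 plate (41.4 against 7.77 to 48.3). For Ddit3 the NoStim values rest on 1 UMI (DMSO), 2 UMI (dCA) and 9 UMI (BRD-6989). With all 8 times summed, Ddit3 in DMSO NoStim stood at 25.2 CPM (7 UMI), above LPS (7.66) and MDP (14.4). Each plate's NoStim value is 1 library, and it enters all 11 of these counts.

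Whether an inhibitor altered the response to stimuli was tested as an interaction in the 180 wells of 60 to 180 min. All of the 7 members in the fit but Atf5 and Phgdh could be estimated. In edgeR 0 of the 7 passed for dCA and 0 for BRD-6989, against 0% and 0% of 5771 genes. DESeq2 was not run for this test. At an unadjusted p under 0.05 the member counts were 0 and 2, beside 333 and 259 of all 5771 genes. The 2 members were Psat1 at 3.12 ± 1.29 (unadjusted p = 0.0170, adjusted p = 0.953) and Ddit3 at -2.89 ± 1.46 (unadjusted p = 0.0498), both for BRD-6989. Neither passed after adjustment. For Psat1, NoStim stood at 133 CPM on the DMSO plate and at 18.4 on the BRD-6989 plate, and the stimulus medians were 72.6 and 76.9. The value of Atf5 could not be estimated, since its DMSO NoStim wells of 60 min and later held 0 UMI. That of Phgdh could not either, since its DMSO wells of these times held 0 UMI with FLA and with LPS.

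Time gave no called slope either. In wells with a stimulus, summed per plate and time, 0 of 7 members passed in edgeR, against 8.93% of 6689 genes. The counts were 0 at an unadjusted p under 0.05 and 0 in DESeq2, beside 1247 and 695 of all genes. In NoStim wells 0 of 6 passed in edgeR, against 0.0171% of 5834 genes, and 0 at an unadjusted p under 0.05, beside 295 of all genes. DESeq2 was not run for that slope. In stimulated wells Ddit3 had the lowest slope of the 7, -0.21 ± 0.14 log2 per hour (adjusted p = 0.482), from 48.3, 24.3 and 45.3 CPM at 15 min on the DMSO, dCA and BRD-6989 plates to 22.8, 31.9 and 5.31 at 180 min. Atf4 went from 175 ± 36.4 at 15 min to 134 ± 29.4 at 180 min (SD, n = 3 plates, slope -0.08 ± 0.06, adjusted p = 0.604). Asns stood at 49.6 ± 19.1 and 56.6 ± 21.0 at the same times (slope 0.06 ± 0.12, adjusted p = 0.855).

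**Figure D4:**
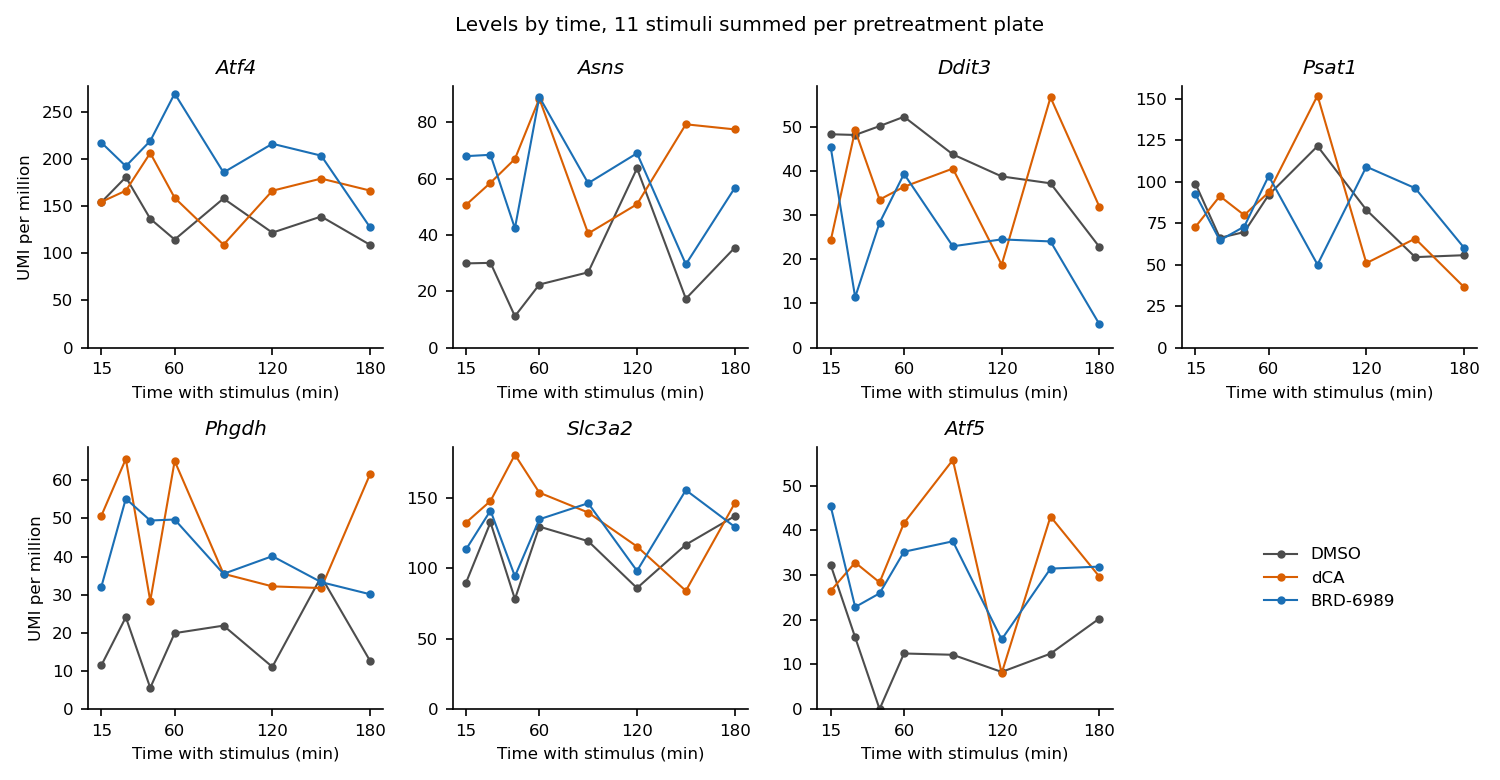
Level in CPM (y axis) of the 7 tested genes against the labelled time with a stimulus in minutes (x axis), with a line for each pretreatment plate and each point the sum of 11 stimulus wells. The lines of 1 gene cross or jump from time to time, and Ddit3 ends at 22.8, 31.9 and 5.31 CPM in DMSO, dCA and BRD-6989 at 180 min.

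Likeness between members across libraries was weak. Over the 36 libraries the 21 pairs of the 7 tested members had Pearson r from -0.25 to 0.59 on log2 levels, a description only, since libraries share plates and depth. The highest was Asns with Phgdh at 0.59, which was 0.02 after the means of pretreatment and stimulus were removed. Ddit3 with Atf5 was 0.21, and 0.60 after those means were removed. The genes whose level was most like the mean of the 7 members were Nptx1 (r = 0.79), Tfrc (0.78), Ahsa1 (0.75), Fam129b (0.75) and Snx5 (0.74), and without the means of pretreatment and stimulus they stood at 0.52, 0.42, 0.14, 0.54 and 0.50. Tfrc encodes the transferrin receptor and Ahsa1 a co-chaperone of HSP90.

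Reporter constructs read the factors by another route. In TF-seq each of 58 reporters is counted through its own sequence tag. A reporter for a factor has a binding site before a minimal promoter, and minP_58 is also among the 58. Totals per well ran from 716 to 8354 counts. Among the 7 reporters whose names hold the letters searched (ATF, CRE, XBP, CEBP and others), 2 passed under dCA, against 36.2% of 58, and 3 under BRD-6989, against 36.2%. The reporter named ATF4_23 took 1.01% (LPS) over a median of 1.07% to 1.46% (NoStim) of reporter counts in DMSO, 1.10% over 1.28% to 1.54% in dCA and 1.23% over 1.33% to 1.64% in BRD-6989. It was higher than in DMSO in 12 of 12 conditions under dCA and 10 of 12 under BRD-6989. The share of minP_58, named for a minimal promoter, was also higher, at means of 1.32% ± 0.12, 1.44% ± 0.10 and 1.41% ± 0.08 (SD, n = 12 libraries each). After TMM scaling ATF4_23 had a log2 change of 0.16 ± 0.04 under BRD-6989 (edgeR adjusted p = 0.000593) and a value of 0.09 ± 0.04 under dCA (adjusted p = 0.0728), and minP_58 stood at -0.01 ± 0.04 and 0.00 ± 0.04. Relative to minP_58 the mean of ATF4_23 was 0.854 ± 0.097 with DMSO, 0.901 ± 0.093 with dCA and 0.956 ± 0.067 with BRD-6989.

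CREB_16 rose by 0.21 ± 0.04 under dCA (edgeR adjusted p = 1.67e-05) and 0.15 ± 0.04 under BRD-6989 (adjusted p = 0.00154). Its share was higher in 12 of 12 conditions under each, and relative to minP_58 it was higher in 9 and 10 of 12. XBP1_20 rose by 0.12 ± 0.04 (adjusted p = 0.0117) and 0.11 ± 0.04 (adjusted p = 0.0262). ATF6_2, CEBPa_51, CEBPb_26 and CREL_52, whose name holds the letters CRE by its factor c-Rel, did not pass under either inhibitor. Without the replicate block, in which each condition is matched across plates, XBP1_20 did not pass (0.13, adjusted p = 0.145, and 0.13, adjusted p = 0.128). Against NoStim in wells of 60 to 180 min, CEBPb_26 fell by 0.32 ± 0.08 over the mean of the 11 stimuli (adjusted p = 0.00118), where 19.0% of the 58 reporters were called, and ATF4_23 stood at -0.13 ± 0.10 (adjusted p = 0.433). That last comparison was chosen after the data were seen.

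**Figure D5:**
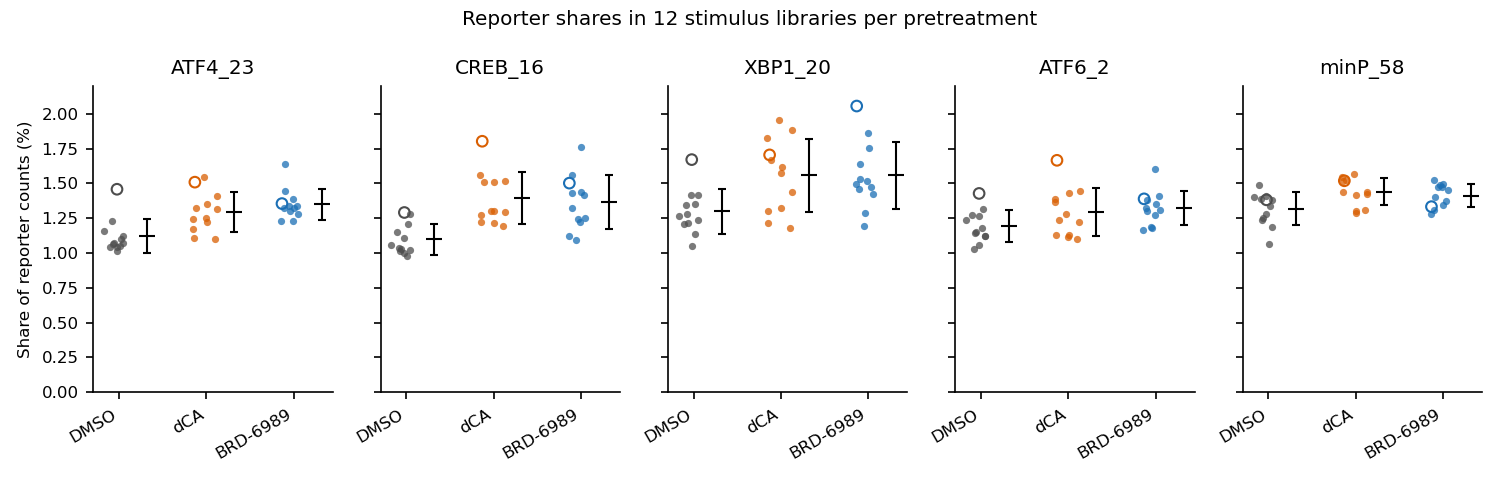
Share of reporter counts in percent (y axis) for 5 reporters in the 12 stimulus libraries of each pretreatment (x axis), with open circles for NoStim and bars for mean ± SD. ATF4_23 has means of 1.12%, 1.30% and 1.35% in DMSO, dCA and BRD-6989, and minP_58 has 1.32%, 1.44% and 1.41%.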

How the data were processed

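The authors deposited whole-number counts of UMI and total read counts per gene, and TF-seq reporter counts, per well. Per the submitters' processing notes, BWA, edgeR and mm10 were used, with roles and versions not given here. A second deposited reporter table, named as normalized, held the same values as the count table, so it is unknown which of these it is, and the values were used as counts. Rn45s was dropped. Tests ran over all genes in edgeR 4.0.16 (R 4.3.3, TMM, quasi-likelihood F tests, 2-sided, Benjamini-Hochberg, threshold 0.05), with filterByExpr at a minimum count of 10, or a mean of 1 UMI per well for fits on wells. DESeq2 1.42.0 was an alternative. Inhibitor fits had the stimulus (12 levels) as the replicate block, and those on NoStim wells the time. Stimulus fits and both time slope fits had the plate. The interaction fit had the time as a factor, so wells of different times of 1 plate and stimulus served as its replicates. Same-stimulus libraries of different plates had deviations with a median r of 0.10 (0.02 to 0.32, 36 pairs). Log2 changes are ± SE. Plate ratios have exact 95% conditional binomial intervals for counting error only. The scripts were tested on simulated data. Named genes were all 10 members; per list and inhibitor up to 4 called each way; for stimuli up to 3 per list; and the 5 genes most like the members' mean. Members and lists were chosen with earlier results of these data known. Times are those of the sample labels, although the series text gives 0 to 4 h. Promoter windows and gene positions are from RefSeq (GRCm38.p6); a window for Slc7a5 was not used here.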

Additional observations from a re-analysis of the deposited data

Results flagged for a closer look

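In 30 groups of 8 NoStim wells (10 genes on 3 plates), 11 held a well far above the others. The rule compares the gap to the next well with the range and takes a normal spread. A group with UMI in only 1 well is always marked, so no chance rate is given for these sparse counts. Of the 11, 3 rested on 10 or 12 UMI. Asns stood at 277 CPM in the dCA well of 120 min (12 UMI), with the next well at 46.5. Phgdh stood at 280.4 in the dCA well of 30 min (10 UMI, next 124), and Atf5 at 283 in the BRD-6989 well of 30 min (10 UMI, next 127). Psat1 stood at 66.4 in the BRD-6989 well of 60 min (4 UMI), and Sesn2 at 83.3 in the dCA well of 150 min (3 UMI) with the other 7 wells at 0. The rest rested on 1 or 2 UMI: Asns at 52.2 in DMSO, Trib3 at 27.8 in dCA and 24.0 in BRD-6989, and Slc7a5 at 26.1, 56.1 and 23.1 in wells of the DMSO, dCA and BRD-6989 plates. Asns, Phgdh and Atf5 were called over all conditions also without the NoStim libraries.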

How the results depend on the processing

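Of 102 counts of called members or reporters under other settings, 94 stayed within 1.5 times of the reported count. A count of 0 under both settings was taken as staying. Many comparisons had a reported count of 0, so for them this share says little. With the stricter count minimum of 50 the members called were 0 under dCA and 1 under BRD-6989, and with wells of 60 to 180 min alone 1 and 2, since fewer members were then tested (1 with the stricter minimum, Atf4, and 4 in late wells). Of all genes 651 and 679 of 1355 were called with the stricter minimum, and 692 and 774 of 4085 in late wells. With the Rn45s share as a covariate BRD-6989 had 0. DESeq2 called 1 member in unstimulated wells under BRD-6989 and 1 among stimuli, beside 96 of 5834 and 638 of 6311 genes. The fits without the replicate block called 3 members under dCA and 4 under BRD-6989, as with it, 0 in the 5 comparisons of unstimulated wells, stimuli and stimulated slopes, and 1 named reporter under dCA in place of 2.

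Signs turned only for values that were not called. Psat1 under dCA stood at -0.0052 with RLE scaling, -0.0044 in DESeq2, -0.19 with total reads, -0.034 in wells of 60 to 180 min and -0.0605 with wells as units. With the Rn45s share as a covariate Psat1 under BRD-6989 stood at 1.05. In unstimulated wells Psat1 under dCA stood at -0.029 with RLE scaling, -0.54 with total reads and -0.245 without the replicate block. Against NoStim, total reads gave Asns -0.0286, Phgdh -0.0151 and Psat1 0.12, the Rn45s covariate gave Phgdh -0.0177 and Psat1 0.23, and all 8 times gave Phgdh -0.0153. Total reads gave a Phgdh slope of 0.061, and for the effect on the response Slc3a2 at -0.16 under dCA. For the same effect total reads gave Phgdh at 0.35 under BRD-6989. Atf5 there stood at 1.09, and for both of these genes UMI counts gave no estimate and so no sign to compare. CEBPb_26 under dCA stood at 0.0432 in late wells and ATF6_2 under BRD-6989 at 0.0037 without the replicate block. The causes were not tested.

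Leaving out 1 condition gave -0.20 to 0.0534 for Ddit3 and -0.0891 to 0.12 for Psat1 under dCA. Leaving out 1 plate gave -0.58 to 0.40 for Psat1 and -0.16 to 0.45 for Slc3a2 against NoStim, slopes in stimulated wells of -0.0092 to 0.18 (Asns), -0.12 to 0.042 (Phgdh) and -0.016 to 0.11 (Slc3a2), and in unstimulated wells of -0.30 to 0.92 (Asns), -0.455 to 0.42 (Phgdh) and -0.34 to 0.0349 (Psat1). Depth limits the rest: Trib3, Sesn2 and Slc7a5 had at most 33 UMI per plate.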

Other observations

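Other genes of the pathway changed with time in wells with a stimulus where the 7 members did not pass. Of 20 tested target genes of ATF4 outside the members, 4 had a rising and 1 a falling slope, beside 6.46% of all 6689 genes rising and 2.47% falling. The autophagy receptor gene Sqstm1 rose by 0.40 ± 0.05 log2 per hour (edgeR adjusted p = 2.31e-07), the bZIP gene Jdp2 by 0.83 ± 0.13 (adjusted p = 8.22e-06), Cebpb by 0.51 ± 0.10 (adjusted p = 0.000167) and Nupr1 by 0.65 ± 0.15 (adjusted p = 0.00173), and Gdf15 fell by 0.83 ± 0.18 (adjusted p = 0.00125). Sqstm1, Jdp2 and Cebpb are known also as inflammatory response genes. Of 13 tested eIF2 kinases and regulators, Eif2ak2 rose by 0.27 ± 0.06 (adjusted p = 0.000986) and Ppp1r15b, the constitutive partner of the eIF2 phosphatase, by 0.39 ± 0.12 (adjusted p = 0.0309). Of 16 ER chaperone genes 1 rose, Hspa5 by 0.13 ± 0.04 (adjusted p = 0.0113), and of 19 synthetases 1 changed, Rars, which fell by 0.26 ± 0.08 (adjusted p = 0.0443). Time and plate row cannot be told apart. The genes named for their slope, and Yars below, were chosen after their values were seen.

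Among stimuli, 5 of 19 tested target genes outside the members differed at 60 to 180 min, beside 6.39% of all 6311 genes, and the smallest p were those of Sqstm1 (adjusted p = 6.22e-07), Cebpb (adjusted p = 2.82e-06) and Atf3 (adjusted p = 2.15e-05). Atf3 stood at 160 ± 107 CPM with NoStim, 346 ± 105 with Zymosan, 333 ± 33.8 with MDP_LPS, 299.8 ± 36.2 with R848 and 107 ± 51.1 with MDP (SD, n = 3 plates). Cebpb stood at 57.9 ± 18.3 with NoStim, 261 ± 22.8 with Pam3cys and 252 ± 37.7 with R848. The ER chaperone genes Calr (adjusted p = 0.000625) and Hsp90b1 (adjusted p = 0.000733) were the 2 of 16 called in that list, with Calr at 2582 ± 163 with R848 and 1290.0 ± 136 with Poly(I:C). In this test of any difference 0 of 19 synthetases and 0 of 13 eIF2 regulators were called. For the mean of the 11 stimuli against NoStim 2 of 19 target genes were called, both higher. Of 19 synthetases 1 was called, Yars, which fell by 1.89 ± 0.52 (edgeR adjusted p = 0.0312). The count was 0 of 13 eIF2 regulators and 0 of 16 ER chaperone genes, beside 2.36% of all genes. The median log2 values were 0.22 for the target genes and -0.30 for the synthetases, where that of all genes was -0.04.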
